A study of Danio rerio with 12 samples.

Results

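Insulin-like growth factors (IGFs) and the proteins that bind them were followed in zebrafish larvae exposed to perfluorooctanesulfonate (PFOS), a persistent fluorinated surfactant. The 10 genes, chosen by name, were the ligand genes igf1, igf2a and igf2b, the receptor gene igf1ra and the binding protein genes igfbp1a, igfbp1b, igfbp2a, igfbp2b, igfbp3 and igfbp5b. All 10 were found among the 26873 genes of the files, and all 10 were among the 22320 genes with enough reads to test. Wild-type larvae were kept in water with PFOS at 0.03, 0.3 or 1 ppm, or with no PFOS, from 2 to 5 days post fertilization, and RNA was taken at 5 days. Every group, the control included, carried 0.2% DMSO as the solvent. Each group had 3 libraries and each library came from 10 pooled larvae, so variation between single animals cannot be seen. Separate clutches or tanks are not named in the labels, so a p here reflects the spread among these libraries, which may be technical.

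IGF ligands are secreted hormones that drive growth through the IGF-1 receptor, a tyrosine kinase that signals through insulin receptor substrates, PI3 kinase, Akt and mTOR. Most extracellular IGF is held by IGF binding proteins, which lengthen the life of the hormone and keep it from the receptor until proteases release it. In vertebrates the liver makes much of the circulating IGF-1 and of binding protein 1, and binding protein 1 is the member that responds fastest to food, insulin, stress hormones and low oxygen. Teleost fish carry duplicated copies of many of these genes, marked a and b.

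The authors' values are read counts per gene, normalised between libraries and rounded to whole numbers. Their totals ran from 24061372 to 31907243 per library, and the steps between low values gave an estimated 21620000 to 34910000 reads behind them. Marker genes of liver, skeletal muscle, epidermis, neurons, intestine, blood, lens and pancreas were above 0 in every library, as were 4 of 6 pituitary markers. Epidermis markers made up 7.58% to 10.6% of a library in replicate 2 (4 libraries) but 4.45% to 7.23% elsewhere (8 libraries), which sets replicate 2 apart. In whole larvae, fewer cells of a type and less RNA per cell cannot be told apart. Gene lengths on the authors' build were not used here, so levels are compared between groups and not between genes.

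None of the 10 genes passed the test at any dose. limma, fitted to log2 of the value plus 1 over all genes, called 0 of the 10 at an adjusted p under 0.05 at 0.03 ppm, 0 at 0.3 ppm, 0 at 1 ppm and 0 for all PFOS libraries together against the control. Calls were rare among all genes too: 0.0582%, 0.13%, 0.139% and 0.188% of the 22320 genes in the same 4 comparisons. At 1 ppm that was 31 genes, or 58 with a term for the replicate number, and with that term 0 of the 10 were called as well. At an unadjusted p under 0.05 there were 2, 3, 4 and 5 of the 10, where 3.49%, 2.82%, 4.74% and 4.35% of all genes had such a p. The 5 genes for all PFOS libraries together were igfbp1b, which was lower, and igf2a, igfbp2a, igfbp3 and igfbp5b, which were higher. The dose comparisons use the same 3 control libraries and are not independent of each other.

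Counting libraries that did not overlap between groups gave a similar picture. Among the 10, 2 lay wholly above the control at 0.03 ppm, 3 at 0.3 ppm and 4 at 1 ppm, where 3.54%, 3.47% and 4.41% of all genes did. Wholly below it lay 1 gene at each dose, igfbp1b, where 3.86%, 3.62% and 4.33% of all genes did. Against all 9 PFOS libraries 1 gene lay wholly above, igfbp5b, and 1 wholly below, igfbp1b, where 0.363% and 0.963% of all genes did. Log2 fold changes above 0 were found for 8, 5, 7 and 7 of the 10 at the rising doses and over all PFOS, against 46.6%, 48.8%, 48.3% and 47.5% of all genes. The median log2 fold change of the 10 was 0.24, 0.07, 0.19 and 0.21, against -0.02, -0.01, -0.01 and -0.01 for all genes.

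**Figure D1:**
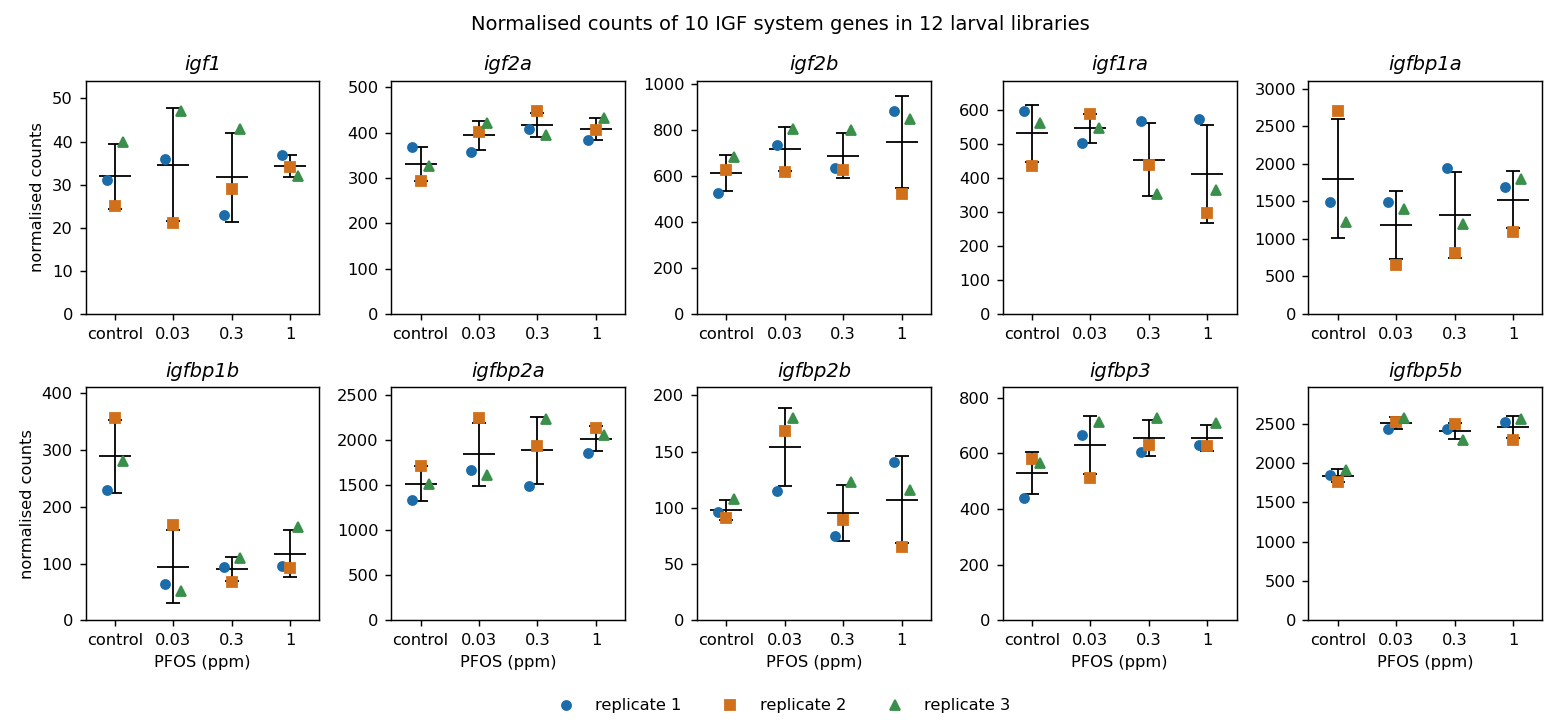
Normalised counts (vertical axis, from 0) of each of the 10 genes in the control and at 0.03, 0.3 and 1 ppm PFOS, with 1 point per library, the marker giving the replicate number, and the mean with SD of 3 libraries as a bar. The igfbp1b points of the 9 PFOS libraries lie at 51 to 168, below the control points at 229 to 357, and the igfbp5b points lie at 2289 to 2574, above the control points at 1755 to 1914.

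Among the ligand genes, igf1 encodes the growth factor whose production in the liver is driven by growth hormone. Its values were low, from 21 to 47 normalised counts. The control libraries held 31, 25 and 40 in replicates 1, 2 and 3, those of 0.03 ppm 36, 21 and 47, those of 0.3 ppm 23, 29 and 43, and those of 1 ppm 37, 34 and 32. The 4 groups overlapped throughout, and neither end of the range belonged to the control or to the highest dose. At 1 ppm the log2 fold change was 0.12, and its 95% interval ran from 0.658 to 1.80 times the control (limma adjusted p = 1.00). Counting error alone would spread such values by 14.3% to 22.6% (coefficient of variation from the estimated reads), and the SD within groups was 7.33% to 37.6% of the mean. Changes within that interval cannot be told from none for igf1 here. The interval is not adjusted for the number of genes, so a larger change might not have been called either.

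igf2a and igf2b encode the duplicated zebrafish IGF-2 ligands, which in vertebrates are best known as growth factors of early development. igf2a had 369, 294 and 327 normalised counts in control replicates 1, 2 and 3. It had 358, 402 and 422 at 0.03 ppm, 408, 447 and 396 at 0.3 ppm, and 385, 406 and 433 at 1 ppm. Every library at 0.3 and 1 ppm lay above all controls, while the 0.03 ppm library of replicate 1 lay below control replicate 1. The means were 330 ± 37.6 in the control, 394 ± 32.7 at 0.03 ppm, 417 ± 26.7 at 0.3 ppm and 408 ± 24.1 at 1 ppm (SD, n = 3), and the 3 dosed groups overlapped each other. Over all PFOS libraries igf2a stood at 1.23 times the control (95% interval 1.04 to 1.46, limma adjusted p = 0.921). When libraries were weighted by their estimated quality, the limma adjusted p was 0.0371, and over the alternatives it ran from 0.0371 to 1.00. It was under 0.05 in 1 of 24 alternatives. For all PFOS, the weights also raised the calls among all genes from 42 to 802.

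igf2b was more scattered. Control replicates 1, 2 and 3 had 527, 624 and 681 normalised counts, and the libraries of 1 ppm had 880, 519 and 847. The 0.03 and 0.3 ppm libraries lay between 616 and 803. The highest and the lowest of the 12 libraries were thus both at 1 ppm, and the groups overlapped. At 1 ppm the log2 fold change was 0.26, with an interval of 0.881 to 1.63 times the control (limma adjusted p = 1.00).

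igf1ra encodes a copy of the IGF-1 receptor. It had 595, 435 and 562 normalised counts in control replicates 1, 2 and 3, 503, 588 and 547 at 0.03 ppm, 568, 439 and 353 at 0.3 ppm, and 574, 296 and 364 at 1 ppm. Replicate 1 stayed between 503 and 595 across the 4 groups, whereas replicate 2 was lowest at 1 ppm and replicate 3 at 0.3 ppm. The mean was 531 ± 84.5 in the control and 411 ± 145 at 1 ppm (SD, n = 3). The fitted fold on the log2(value + 1) scale was 0.752, with an interval of 0.525 to 1.08 (limma adjusted p = 1.00). The other copy, igf1rb, averaged 565 ± 138 in controls and 537 ± 87.1 at 1 ppm, less than its spread.

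Of the binding protein genes, igfbp1b had the largest log2 fold change against the control, in either direction, at each dose. igfbp1b (ENSDARG00000038666) encodes a copy of binding protein 1, which restrains growth when it is abundant. It had 229, 357 and 281 normalised counts in control replicates 1, 2 and 3. The libraries of 0.03 ppm had 65, 168 and 51, those of 0.3 ppm 94, 67 and 110, and those of 1 ppm 96, 92 and 165. All 9 PFOS libraries lay below all 3 controls. At 0.3 and 1 ppm, where replicate numbers were taken to pair libraries with the control, each of the 6 stood at 0.188 to 0.587 times the control of its number. The 0.03 ppm libraries, not taken as paired, stood at 0.284, 0.471 and 0.181 times the control of replicates 1, 2 and 3. The groups from 0.03 to 1 ppm overlapped each other, and of the dosed groups 1 ppm had the highest mean (118 ± 41.0, against 94.7 ± 63.9 at 0.03 ppm and 90.3 ± 21.7 at 0.3 ppm; SD, n = 3).

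On the fitted scale igfbp1b stood at 0.333 times the control over all PFOS libraries (log2 fold change -1.59, SE 0.321, 95% interval 0.205 to 0.539 times, limma adjusted p = 0.108). The adjusted p was 0.367 at 0.03 ppm, 0.373 at 0.3 ppm and 0.627 at 1 ppm, with log2 fold changes of -1.77, -1.67 and -1.32. Without the 0.03 ppm library of replicate 2 the limma adjusted p was 0.00743 for all PFOS and 0.0405 at 0.03 ppm. When each library was weighted by its estimated quality it was 0.00103, 0.00953, 0.0154 and 0.0339 for all PFOS and the 3 doses in rising order. Over the alternatives tried it ran from 0.00103 to 1.00 for all PFOS, and the log2 fold change kept its sign in each of them. The limma adjusted p was under 0.05 in 2 of 24 alternatives for all PFOS and 2 of 19 at 0.03 ppm. It was so in 1 of 19 at 0.3 ppm and 1 of 19 at 1 ppm. For all PFOS, the library weights raised the calls among all genes from 42 to 802.

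Because binding protein 1 is a product of the liver, the liver markers are given beside it. The 12 liver markers, none at 0 in any library, made up between 0.773% and 1.098% of a control library, between 0.853% and 1.02% of a 0.03 ppm library, between 1.118% and 1.14% of a 0.3 ppm library and between 1.115% and 1.26% of a 1 ppm library. No PFOS library fell below the lowest control, replicate 3, in this share. Control replicates 1 and 2 had 0.987% and 1.098%, and 0.03 ppm replicates 1 and 2 lay below both, at 0.853% and 0.920%. The part of this share in the igfbp1b values was not tested. Of the 12, 9 were above the control at 0.03 ppm, 12 at 0.3 ppm and 11 at 1 ppm, with a median log2 fold change of 0.17, 0.23 and 0.67. limma called 0 at each dose (0, 0 and 5 at an unadjusted p under 0.05). Of all genes, 46.6%, 48.8% and 48.3% were above the control at these doses, and 3.49%, 2.82% and 4.74% had such a p.

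igfbp1a is the other copy, and its PFOS libraries overlapped the controls. It had 1494, 2697 and 1219 normalised counts in control replicates 1, 2 and 3, 1495, 658 and 1398 at 0.03 ppm, 1942, 811 and 1192 at 0.3 ppm, and 1687, 1091 and 1794 at 1 ppm. Replicate 2 held both the highest control library and the lowest library at each dose. Within replicate 2 the libraries of 0.3 and 1 ppm stood at 0.301 and 0.405 times the control, and within replicates 1 and 3 at 0.978 to 1.47 times. Over all PFOS libraries the fitted fold was 0.747 (95% interval 0.462 to 1.21, limma adjusted p = 1.00), and without the 4 libraries of replicate 2 the log2 fold change turned from -0.42 to 0.21.

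**Figure D2:**
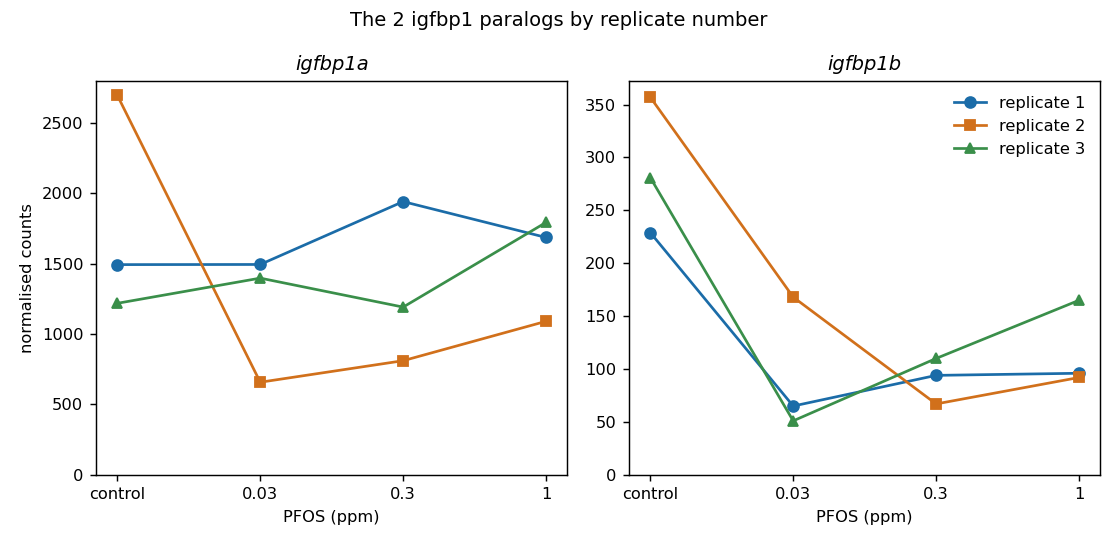
Normalised counts (vertical axes, from 0) of igfbp1a and igfbp1b against PFOS dose in ppm, with 1 point per library. Lines join libraries that carry the same replicate number, which was taken to pair the 0.3 and 1 ppm libraries with the control but not those of 0.03 ppm. For igfbp1b all 3 lines drop from the control to 0.03 ppm, while for igfbp1a only the line of replicate 2 does, from 2697 to 658.

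igfbp5b was higher in every PFOS library, by a small and even amount. igfbp5b (ENSDARG00000025348) encodes a copy of binding protein 5, which in mammals is abundant in bone matrix and muscle. Control replicates 1, 2 and 3 had 1847, 1755 and 1914 normalised counts. The libraries had 2431, 2519 and 2574 at 0.03 ppm, 2428, 2491 and 2289 at 0.3 ppm, and 2518, 2298 and 2563 at 1 ppm. All 9 PFOS libraries lay above all 3 controls, and the dosed groups overlapped each other. The SD within groups was 2.88% to 5.77% of the mean, the smallest such range among the 10 genes.

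Over all PFOS libraries igfbp5b stood at 1.34 times the control (log2 fold change 0.42, SE 0.0893, 95% interval 1.17 to 1.53, limma adjusted p = 0.162). The log2 fold change was 0.45, 0.39 and 0.42 at 0.03, 0.3 and 1 ppm (limma adjusted p = 0.556, 0.841 and 0.411). When libraries were weighted the limma adjusted p was 0.00533 for all PFOS and 0.0233 at 1 ppm. Over the alternatives it ran from 0.00533 to 1.00 for all PFOS. It was under 0.05 in 1 of 24 alternatives for all PFOS and 1 of 19 at 1 ppm. The library weights raised the calls among all genes from 42 to 802 for all PFOS and from 31 to 768 at 1 ppm.

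igfbp2a and igfbp2b are the copies of binding protein 2, an abundant carrier of IGF in mammalian plasma. igfbp2a had 1331, 1712 and 1508 normalised counts in control replicates 1, 2 and 3, 1663, 2245 and 1614 at 0.03 ppm, 1492, 1929 and 2230 at 0.3 ppm, and 1855, 2128 and 2059 at 1 ppm. The libraries of 0.3 and 1 ppm stood at 1.12 to 1.48 times the control of their own number, and those of 1 ppm lay above all controls. The means were ordered as the doses, from 1517 ± 191 through 1841 ± 351 and 1884 ± 371 to 2014 ± 142 (SD, n = 3), but neighbouring groups overlapped. At 1 ppm the fitted fold was 1.33 (95% interval 1.02 to 1.74, limma adjusted p = 1.00).

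igfbp2b had 96, 91 and 108 normalised counts in control replicates 1, 2 and 3 and 115, 168 and 180 at 0.03 ppm. At the higher doses it lay between 65 and 141. The 0.03 ppm libraries were thus above the controls, whereas those of 0.3 and 1 ppm spread to both sides of them. The fitted fold was 1.54 at 0.03 ppm, with an interval of 0.994 to 2.38, and 1.04 at 1 ppm, with an interval of 0.672 to 1.61 (limma adjusted p = 0.998 and 1.00).

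igfbp3 encodes binding protein 3, the main carrier of IGF in mammalian blood. It had 441, 580 and 566 normalised counts in control replicates 1, 2 and 3, 664, 512 and 713 at 0.03 ppm, 604, 631 and 727 at 0.3 ppm, and 628, 627 and 709 at 1 ppm. The libraries of 0.3 and 1 ppm lay above all controls, and that of 0.03 ppm replicate 2 lay among them. Over all PFOS libraries the fitted fold was 1.22 (95% interval 1.00 to 1.49, limma adjusted p = 1.00).

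**Figure D3:**
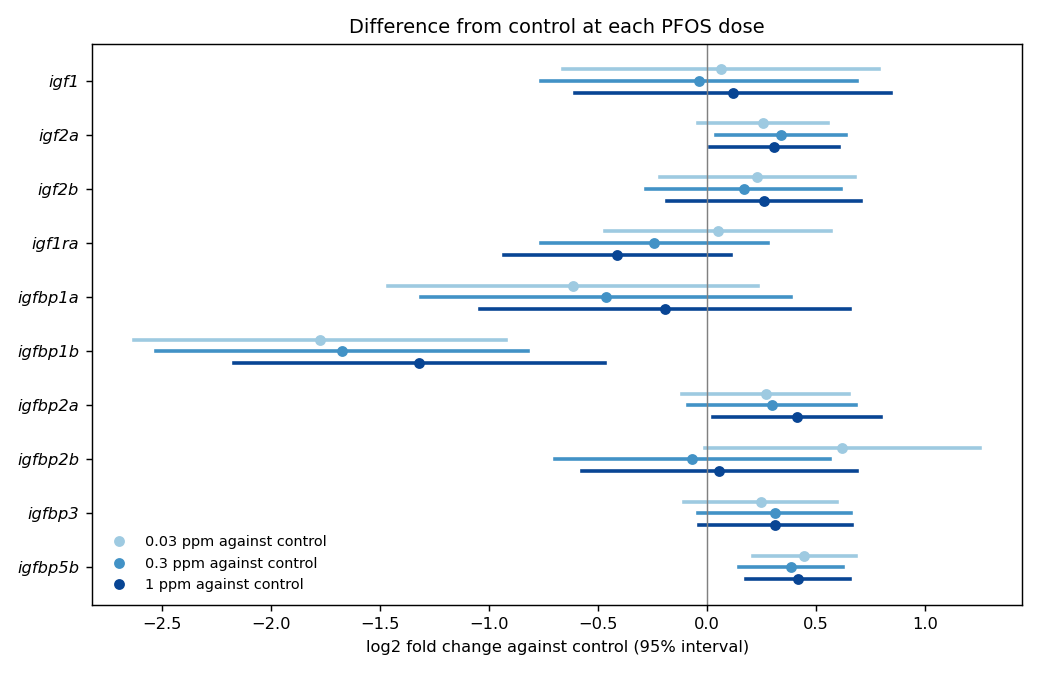
Log2 fold change against the control (horizontal axis) of the 10 genes at 0.03, 0.3 and 1 ppm PFOS, as points with 95% intervals that are not adjusted for the number of genes. The 3 intervals of igfbp1b lie below 0 and those of igfbp5b above 0, and those of igf1, igf2b, igf1ra, igfbp1a, igfbp2b and igfbp3 include 0 at every dose.

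Several binding protein genes lie side by side in the RefSeq annotation of the assembly GRCz12tu. igfbp1a is next to igfbp3, igfbp2a next to igfbp5a, and igfbp2b next to igfbp5b. Their values are set side by side here, and whether neighbours differed was not tested. igfbp2b and igfbp5b stood at 1.54 and 1.36 times the control at 0.03 ppm, where all 3 libraries of each lay above every control, at 0.955 and 1.31 times at 0.3 ppm, and at 1.04 and 1.34 times at 1 ppm. igfbp1a and igfbp3 stood at 0.654 and 1.19 times at 0.03 ppm, 0.726 and 1.24 times at 0.3 ppm, and 0.876 and 1.24 times at 1 ppm. igfbp2a and igfbp5a, a gene of the calcium-transporting skin cells of zebrafish larvae, had their lowest values in the same library, control replicate 1, with 1331 and 297 normalised counts. Their highest values were also in 1 library, 0.03 ppm replicate 2, with 2245 and 1234. Control replicate 1 also had the lowest share of epidermis markers, 4.45%, and 0.03 ppm replicate 2 the highest, 10.62%. Other libraries did not all keep this order. In 1 ppm replicate 3 the share was 4.99%, with 2059 for igfbp2a and 381 for igfbp5a. It was 7.58% in control replicate 2, with 1712 and 688, and 10.60% in 1 ppm replicate 2, with 2128 and 421. The part of the epidermis share in the igfbp2a and igfbp5a values was not tested. Near-identical stretches of paralogs can share reads, and how the authors' counting divided them is not given in the sources used here, so the a and b copies carry that uncertainty.

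The doses were also compared with each other, and a slope was fitted over the control and the doses in order. Comparing 1 ppm with 0.03 ppm, limma called 0 of the 10 (0 at an unadjusted p under 0.05), where 0.00448% of all genes were called and 2.95% had an unadjusted p under 0.05. A slope over the order of the 4 groups called 0 of the 10 (4 at an unadjusted p under 0.05), where 0.0134% and 5.56% of all genes passed these thresholds. Those 4 were igf2a, igfbp1b, igfbp2a and igfbp5b, with limma adjusted p of 0.877, 0.893, 0.861 and 0.760. The control is the first of the 4 groups, so a step from the control to all doses also gives a slope. At 0.03, 0.3 and 1 ppm the log2 fold changes were -1.77, -1.67 and -1.32 for igfbp1b and 0.45, 0.39 and 0.42 for igfbp5b. They were 0.26, 0.34 and 0.31 for igf2a and 0.27, 0.30 and 0.41 for igfbp2a.

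Of 9 tested genes of the IGF and insulin family outside the 10, limma called 0 at each dose (0 at an unadjusted p under 0.05), and 6 were above the control at 0.03 ppm, 3 at 0.3 ppm and 2 at 1 ppm. Their median log2 fold change was 0.13, -0.14 and -0.15 at these doses. Of all genes, 46.6%, 48.8% and 48.3% were above the control at these doses, shares that apply to the lists below too. igfals encodes the acid-labile subunit, a liver protein that in mammals completes the circulating complex of IGF and binding protein 3. Its control libraries held 34, 32 and 6 normalised counts and those of 1 ppm 43, 35 and 41. The control library with 6 was replicate 3, which also had the lowest share of liver markers, 0.773%, and the part of that share in the igfals value was not tested. igfbp6b, the copy of binding protein 6 that was tested, averaged 389 ± 78.4 in controls and 298 ± 52.7 at 1 ppm (SD, n = 3), and the insulin receptor gene insrb had 649 ± 65.0 and 519 ± 180. igf3, a gonadal ligand of fish, was listed at 0 to 3 and igfbp6a at 0 to 8 normalised counts, and neither was tested.

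Among 10 tested genes for proteases that cut binding proteins, such as pappalysins, and for their stanniocalcin inhibitors, 6 were above the control at 0.03 ppm, 5 at 0.3 ppm and 5 at 1 ppm, and limma called 0 at each dose (0 at an unadjusted p under 0.05). The pappalysin gene pappab averaged 42.7 ± 17.5 in controls and 25.3 ± 13.0 at 1 ppm (SD, n = 3). The stanniocalcin gene stc2b had 54.3 ± 18.1 and 38.0 ± 15.6, and stc2a had 482 ± 47.4 and 546 ± 39.9.

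In the growth hormone axis, 11 of 22 tested genes were above the control at 0.03 ppm, 12 at 0.3 ppm and 7 at 1 ppm, and limma called 0 at each dose (0 at an unadjusted p under 0.05). The median log2 fold change was -0.04, 0.03 and -0.10. gh1, the pituitary growth hormone itself, had 177, 85 and 193 normalised counts in control replicates 1, 2 and 3 and 97, 53 and 142 at 1 ppm. It was lowest in the library of replicate 2 in each of the 4 groups. The receptor gene ghrb had 855 ± 184 and 640 ± 57.7 in the control and at 1 ppm, and socs2, a feedback inhibitor of growth hormone signalling, had 304 ± 68.6 and 239 ± 10.8 (SD, n = 3).

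Downstream of the receptors, 33 genes of insulin receptor substrates, PI3 kinase and Akt were tested, of which 22 were above the control at 0.03 ppm, 12 at 0.3 ppm and 9 at 1 ppm. Their median log2 fold change was 0.04, -0.03 and -0.08 at these doses, and limma called 0 at each (2, 2 and 1 at an unadjusted p under 0.05). Of all genes, 3.49%, 2.82% and 4.74% had such a p. irs2b, an adaptor of insulin and IGF receptors, averaged 966 ± 191 in controls and 705 ± 81.2 at 1 ppm (SD, n = 3). pik3cd, a catalytic subunit of PI3 kinase, had 141 ± 27.3 and 104 ± 7.57, and pdpk1a, the kinase that activates Akt, had 349 ± 39.7 and 272 ± 41.2. Of 28 mTOR genes, 13, 15 and 13 were above the control at the rising doses. limma called 0 at each (2, 5 and 4 at an unadjusted p under 0.05, beside the same shares of all genes). eif4ebp3, a translation inhibitor that mTOR switches off, had 1179 ± 22.6 and 793 ± 97.3 (limma adjusted p = 0.548). akt1s1, an inhibitory partner of mTOR, had 2412 ± 273 and 1809 ± 159, and sesn1, a stress-induced restraint on mTOR, had 6179 ± 1212 and 4127 ± 161.

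FoxO transcription factors are switched off by insulin and IGF signals, and they turn on muscle ubiquitin ligases in fasting. Of 31 genes in that list, 13 were above the control at 0.03 ppm, 10 at 0.3 ppm and 9 at 1 ppm. limma called 1, 2 and 2 of them at these doses, all lower, where 0.0582%, 0.13% and 0.139% of all genes were called. The MuRF1 ligase gene trim63a held 1665, 1476 and 1997 normalised counts in control replicates 1, 2 and 3 and 736, 690 and 749 at 1 ppm, a log2 difference of -1.23 (limma adjusted p = 0.009996). The atrogin-1 gene fbxo32 held 696, 462 and 1063 in the controls and 163, 122 and 147 at 1 ppm, a log2 difference of -2.28 (limma adjusted p = 0.0293). Both lay below every control in all 9 PFOS libraries, as igfbp1b did and as 0.963% of all genes did. trim63a was called at 0.03 and 0.3 ppm too (limma adjusted p = 0.0344 and 0.00599) and fbxo32 at 0.3 ppm (0.0408) but not at 0.03 ppm (0.175). Over all PFOS libraries both were called (limma adjusted p = 0.00197 for trim63a and 0.00731 for fbxo32), as 0.188% of all genes were. Leaving out any library of the comparison but control replicate 2 ended the calls of trim63a at 0.03 ppm and of fbxo32 at 0.3 and 1 ppm, with limma adjusted p from 0.0821 to 0.225. trim63a was no longer called at 1 ppm without 1 ppm replicate 1 (0.0502) or replicate 3 (0.0501). Without all libraries of replicate 1, or of replicate 3, neither gene was called at any dose or over all PFOS libraries. Without those of replicate 2, trim63a was called at no dose and fbxo32 at every dose, and both were called over all PFOS libraries. Skeletal muscle markers, none at 0 in any library, made up between 7.93% and 8.56% of a control library. They made up 5.48% to 7.80% at 0.03 ppm, below every control, 6.43% to 9.31% at 0.3 ppm and 6.63% to 8.46% at 1 ppm. Of these 11 markers, 2 were above the control at 0.03 ppm, 4 at 0.3 ppm and 4 at 1 ppm. Their median log2 fold change was -0.38, -0.08 and -0.18, and limma called 0 at each dose. The part of the muscle share in the trim63a and fbxo32 values was not tested. Earlier results of these data were known when the FoxO and fasting list was drawn up, so it is no independent evidence.

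In the hypoxia list, 19 of 33 tested genes were above the control at 0.03 ppm, 19 at 0.3 ppm and 22 at 1 ppm, with a median log2 fold change of 0.03, 0.02 and 0.12. limma called 0 at each dose (3, 3 and 4 at an unadjusted p under 0.05, where 3.49%, 2.82% and 4.74% of all genes had such a p). The lactate dehydrogenase gene ldha averaged 4480 ± 293 in controls and 6444 ± 1487 at 1 ppm (SD, n = 3). The glycolytic regulator gene pfkfb3 had 691 ± 188 and 458 ± 102. A gene listed as egln1b (ENSDARG00000105156), of the oxygen-sensing prolyl hydroxylases, had 7, 9 and 50 in the controls and 55, 34 and 51 at 1 ppm. Its log2 fold change at 1 ppm was 1.55, and that of another entry named egln1b was 0.22.

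**Figure D4:**
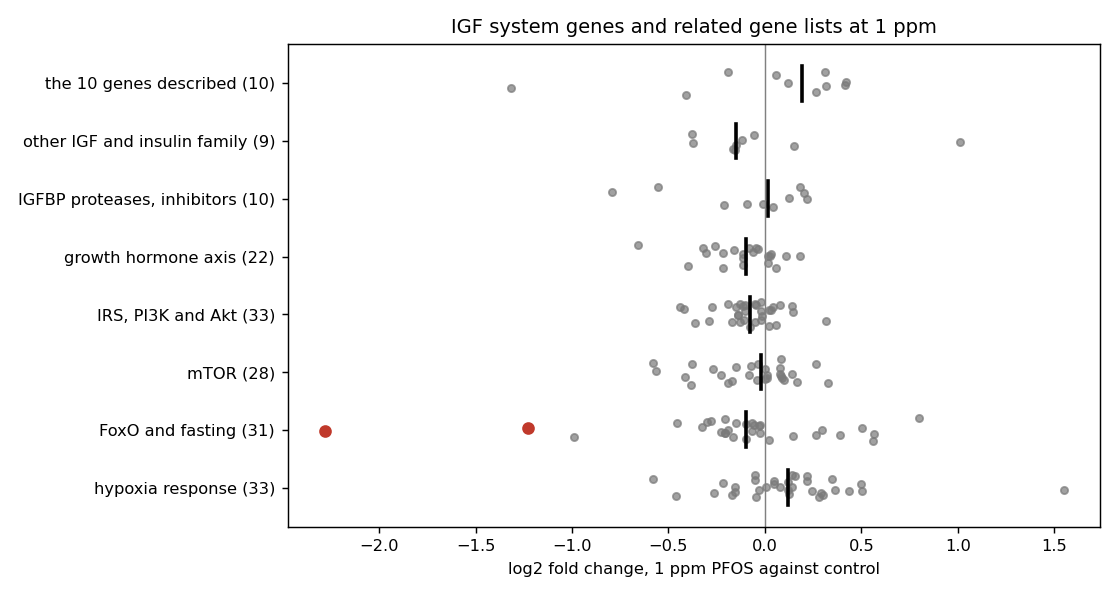
Log2 fold change at 1 ppm PFOS against the control (horizontal axis) of each tested gene in the 10 genes described and in 7 related lists, with the number tested in brackets, a black bar at the median and red points for genes called by limma. The 2 red points, fbxo32 and trim63a, are both in the FoxO and fasting list, and the lowest of the 10 genes described is igfbp1b at -1.32.

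Likeness was sought among genes with a symbol other than a clone or locus name. Of these, fbxw8, an F-box ligase subunit, followed igfbp1b most closely in log2 value over the 12 libraries (Pearson r = 0.919). The next were ampd1, the muscle AMP deaminase (0.912), and NAPSA, an aspartic protease (0.890). ampd1 averaged 12449 ± 1052 in controls, 7566 ± 1218 at 0.03 ppm, 8538 ± 325 at 0.3 ppm and 8931 ± 950 at 1 ppm (SD, n = 3). For igfbp1a the closest were yrk, a Src family kinase (0.893), sec23b, a coat subunit of secretory vesicles (0.885), and pde4ba, a cyclic AMP phosphodiesterase (0.883). sec23b had 7180 normalised counts in control replicate 2, the library with the highest igfbp1a, and 1238 to 3182 in the other 11. For igf1 the closest were nudt2, a nucleotide hydrolase (0.842), hoxb4a, a Hox factor (0.836), and stc2a (0.822). These correlations pick the closest of 13493 genes over libraries that share groups, and they are given as a description.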

How the data were processed

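Poly-A RNA of 12 libraries of 10 whole larvae each was sequenced, stranded and paired-end, per the labels' protocols. The deposited values are a score: normalized counts of the authors, per the file headers, which are all whole numbers and were read here as rounded counts divided by a library factor. The submitters' processing notes list the build GRCz10 and, with no roles, DESeq2 1.10.1, RSEM 1.2.28, STAR 2.5.1b and CASAVA. The values are no raw counts, so no count test was run, and the table of the whole series was not used here. Library factors of 0.802 to 1.304, estimated from the spacing of low values, gave the estimated reads, which carry counting error only.

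In R 4.3.3, limma 3.58.1 modelled log2(value + 1) with a mean for each of the 4 groups and a trended prior variance. Unless another fit is named, intervals and adjusted p come from this fit, which has no term for the replicate number. They thus leave out the pairing described below. Genes reaching 10 in 3 or more of the 12 libraries entered, 22320 of 26873. Fold changes are on that scale and understate those of low genes. Tests were two-sided, p-values were adjusted by Benjamini-Hochberg across these genes, and a call meant an adjusted p under 0.05. Exact tests of 3 against 3 libraries cannot go below p = 0.1. The method was tested on simulated data.

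The deviations of control libraries from their group mean correlated with those of same-number libraries at 0.145 to 0.286 for 0.3 ppm, 0.119 to 0.478 for 1 ppm and 0.0776 to 0.291 for 0.03 ppm. Libraries of another number reached at most -0.0106 for 0.3 ppm, 0.204 for 1 ppm and 0.226 for 0.03 ppm. Same-number and other pairs thus overlapped at 1 ppm as at 0.03 ppm. Deviations within a group cancel out, so higher values for same-number pairs go with lower values for the others. With a cut at 0.1 on the same-number pairs, the numbers were taken to pair the 0.3 and 1 ppm libraries with the control. That cut lies between the lowest same-number values of 0.03 ppm, 0.0776, and of 1 ppm, 0.119. Those of 0.03 ppm were not taken as paired, and the pairing at 1 ppm is uncertain. Between 0.03 and 0.3 ppm, same-number libraries correlated at 0.116 to 0.338 and others at most at 0.0892. Between 0.03 and 1 ppm these values were 0.0268 to 0.411 and 0.242, and between 0.3 and 1 ppm 0.280 to 0.460 and -0.0753. Whether the 0.03 ppm libraries share the pairing is thus uncertain too.

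Named genes are all 10 members. From 7 related lists, genes called in any comparison are named, or else the 3 of smallest p at 1 ppm. Also named are the 3 genes most like igf1, igfbp1a and igfbp1b, of mean at least 100 and without a clone or locus name. igf1rb, igfbp5a, igf3 and igfbp6a fall outside these rules and were named after their values were seen, as copies or neighbours of members. The lists held 182 genes, of which 173 matched a name and 166 rows were tested, and 9 marker lists held 73. Members and lists were chosen with earlier results of these data known. Alternatives covered scaling, filter, pseudocount, trend, library weights, groups in the fit, the replicate term and libraries left out. They were run for trim63a and fbxo32 after their calls were seen. Figures were drawn with Python 3.11.15 and matplotlib 3.10.9.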

Additional observations from a re-analysis of the deposited data

How the results depend on the processing

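The log2 fold changes of igfbp1b, igfbp5b, igf2a, igfbp2a and igfbp3 against the control kept their sign under every alternative run. With a weight estimated for each library, the genes of the 10 called numbered 1 at 0.03 ppm, 1 at 0.3 ppm, 2 at 1 ppm and 3 for all PFOS, and leaving out libraries gave 0 to 1 at 0.03 ppm and for all PFOS. Genes called in all were 57, 95, 768, 802 and 56 with library weights at 0.03, 0.3 and 1 ppm, for all PFOS and for the slope. With a replicate block they were 20, 58, 78 and 9 at 0.03 and 1 ppm, for all PFOS and for the slope, and the block changed the call of none of the 10. Rescaling to equal totals gave 6 and 18 at 0.03 and 0.3 ppm, no trend gave 2, 12 and 0 at 0.03 and 0.3 ppm and for the slope, only the groups compared gave 3, 11 and 3 at the 3 doses, and a mean of at least 50 gave 0 for 1 against 0.03 ppm. Leaving out libraries gave 0 to 11, 0 to 18 and 0 to 47 at the 3 doses, 0 to 60 for all PFOS, 0 to 1 for 1 against 0.03 ppm and 0 to 30 for the slope; the cause was not tested. Without all libraries of replicate 1, or of replicate 3, 0 genes were called at each dose. trim63a and fbxo32, examined after the data were seen, kept their sign throughout, and with libraries left out trim63a was called in 1, 6 and 4 of 9 fits at the rising doses and fbxo32 in 2, 2 and 2 of 9. For all PFOS, trim63a was called in 13 and fbxo32 in 11 of 15 such fits.

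Of 1234 values of single members under alternatives, 56 changed sign, 46 of them with libraries left out, none past the threshold. The log2 range without libraries was -0.18 to 0.38, -0.27 to 0.16, -0.0382 to 0.34 and -0.11 to 0.22 for igf1 at the 3 doses and all PFOS. It was -1.02 to 0.10, -0.88 to 0.17, -0.56 to 0.37 and -0.75 to 0.21 for igfbp1a, -0.14 to 0.20 for igf1ra at 0.03 ppm, and -0.26 to 0.0925 and -0.19 to 0.38 for igfbp2b at 0.3 and 1 ppm. For 1 against 0.03 ppm it was -0.26 to 0.35 for igf1, -0.0153 to 0.10 for igf2a, -0.11 to 0.27 for igf2b, -0.15 to 1.12 for igfbp1b, -0.0741 to 0.16 for igfbp3 and -0.0693 to 0.0223 for igfbp5b, and for the slope -0.0473 to 0.0927 for igf1, -0.14 to 0.12 for igfbp1a and -0.13 to 0.0400 for igfbp2b. Library weights turned igf1ra at 0.03 ppm to -0.0214, igf2b at 0.3 ppm to -0.0151, igf1 to -0.12 and igfbp1a to 0.28 at 1 ppm, and igf1 to -0.17 and igfbp1a to 0.0323 for all PFOS. They turned igf1 to -0.13 for 1 against 0.03 ppm, and igf1 to -0.0148 and igfbp1a to 0.0020 for the slope, while equal totals turned igf2b to -0.0096 for 1 against 0.03 ppm.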
